A study of Mus musculus with 8 samples.

Results

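The transcripts of the ionotropic and metabotropic glutamate receptor subunits, the GABA receptor subunits and the glycine receptor subunits were compared between the retinas of germ-free mice on 2 diets. Members were taken by gene symbol: Gria, Grik, Grin and Grid for the ionotropic glutamate receptors, Grm other than Grm6 (7 genes) for the metabotropic ones, Gabr for the GABA receptors and Glra and Glrb for the glycine receptors. Of 49 symbols that fit, 47 had 10 or more counts over the 8 libraries and are the members described here, out of 26900 genes with as many counts and 55213 symbols in all. The remaining 2 symbols were Gabrp with 8 counts and Gabra6 with 6 counts in total. The rule uses no expression value other than this count, but it was set with earlier results of these data known.

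RNA was sequenced from 1 whole retina of each of 8 male mice, given as C57B1/6 in the labels and raised without microbes (germ-free, GF). From the age of 7 weeks they were fed a normal diet (GF-ND, mice 9, 10, 11 and 12) or a high-fat diet with 23% saturated fat (GF-HFD, mice 13, 15, 16 and 19), and after 8 weeks, at 15 weeks of age, the retinas were taken. The study asked how a high-fat diet relates to the retinal transcriptome where no gut microbes are present. All 8 mice lacked microbes, so the comparison is of diets within germ-free mice only.

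Glutamate is the transmitter of photoreceptors, bipolar cells and ganglion cells, and GABA and glycine are the transmitters of amacrine cells and, for GABA, of horizontal cells. AMPA, kainate and NMDA receptors are ion channels of several subunits that open when glutamate binds, whereas metabotropic glutamate receptors act through G proteins. GABA-A and glycine receptors are chloride channels built of subunits, and the rho subunits form a GABA receptor of slow, sustained currents that is known for its place on the axon terminals of retinal bipolar cells.

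The libraries held 39258006 to 44357518 counts, and members took 0.189 to 0.213% of them. Values are CPM, that is, counts relative to library totals that were scaled by TMM factors. Fold changes compare GF-HFD with GF-ND on the log2 scale, and their standard errors (SE) come from the quasi-likelihood fit of edgeR. The libraries held retinal transcripts: the 5 rod markers together stood at 31100 to 68960 CPM, against 58.4 to 67.6 CPM for 5 markers of the oligodendrocytes of the optic nerve. Transcripts of tissues next to the retina were high in some libraries. Transcripts of 8 lens markers were 5.27% of the counts of mouse 11 (GF-ND) and 1.02% of those of mouse 19 (GF-HFD), against 0.0150 to 0.144% in the other 6. In mouse 11 the lens markers summed to 55240 CPM, above the 31100 CPM of its rod markers. The 5 pigment epithelium markers summed to 779 CPM in mouse 11, 385 in mouse 16, 325 in mouse 19 and 134 in mouse 15, against 17.4 to 49.6 CPM in the other 4 mice. Fibroblast markers summed to 193 CPM in mouse 16, 260.1 in mouse 19 and 152 in mouse 11, and to 4.31 to 65.4 CPM in the other 5. In RNA of a whole tissue, fewer cells of a type and less RNA per cell cannot be told apart.

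Levels of different genes were compared per kilobase (kb) of exon. The most abundant members per kb were the rho subunits Gabrr1 and Gabrr2, with a mean of 40.5 and 33.9 CPM per kb over the 8 mice. Also among the more abundant members were the kainate subunit Grik1 at 18.3, the glycine receptor beta subunit Glrb at 17.6, the AMPA subunit Gria4 at 15.9 and the kainate subunit Grik5 at 13.9 CPM per kb. NMDA subunits were lower, from Grin1 at 4.25 to Grin3b at 0.312 CPM per kb, and the 7 metabotropic receptors taken here spanned 0.478 (Grm3) to 3.74 (Grm5). The lowest member was Gabre at 0.0826 CPM per kb, with 132 counts over all libraries. With the longest coding transcript as the length, the first member of each class was the same except in group III of the metabotropic receptors, where Grm8 then stood before Grm7.

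**Figure D1:**
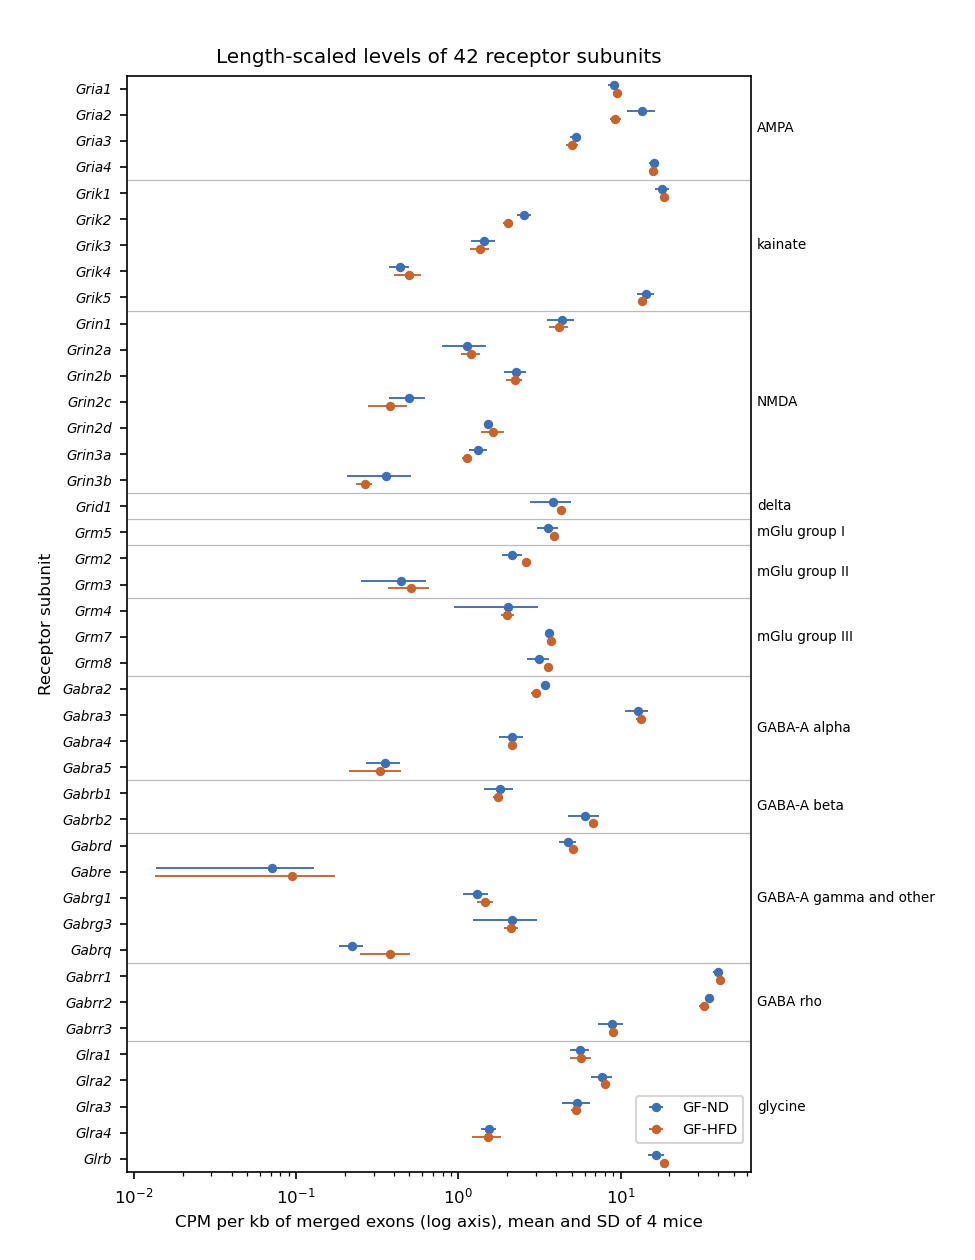
Mean level of 42 receptor subunits in CPM per kb of merged exons (log axis), with bars for the SD over 4 mice, in GF-ND and GF-HFD retinas and grouped by receptor class. Gabrr1 and Gabrr2 lie farthest to the right at 40.5 and 33.9 CPM per kb over the 8 mice, and the means of the diets lie close together for most members.

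Between the diets, most subunits had nearly the same level. In the fit over all 26900 genes, 26 members had a higher and 21 a lower fitted level in GF-HFD, with a median log2 fold change of 0.03 against -0.03 over all genes, of which 46.3% were higher. With library totals in place of TMM factors, 22 were higher and 25 lower, with a median of -0.01 against -0.07 over all genes. None of the 47 members passed an adjusted p of 0.05, and the share over all genes was 0% (edgeR quasi-likelihood test, Benjamini-Hochberg adjustment over all genes, smallest adjusted p of a member 0.649). Limma-voom and DESeq2 also called 0 members, with a smallest adjusted p of 0.0629 in DESeq2, which called 46 genes in all. Without adjustment, 3 members had an edgeR p under 0.05. Gabrq was higher, 1 member where 2.85% of all genes were called higher, and the AMPA subunit Gria2 and the kainate subunit Grik2 were lower, 2 members where 4.53% of all genes were called lower. These are shares near or below what all genes gave. Groups did not overlap for 0 members that were higher (2.29% of all genes) and for 2 that were lower (2.54% of all genes), which were Gria2 and Grik2. At an unadjusted p under 0.01 together with a log2 fold change beyond 1 in size, 0 members were called, against 0.457% of all genes.

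**Figure D2:**
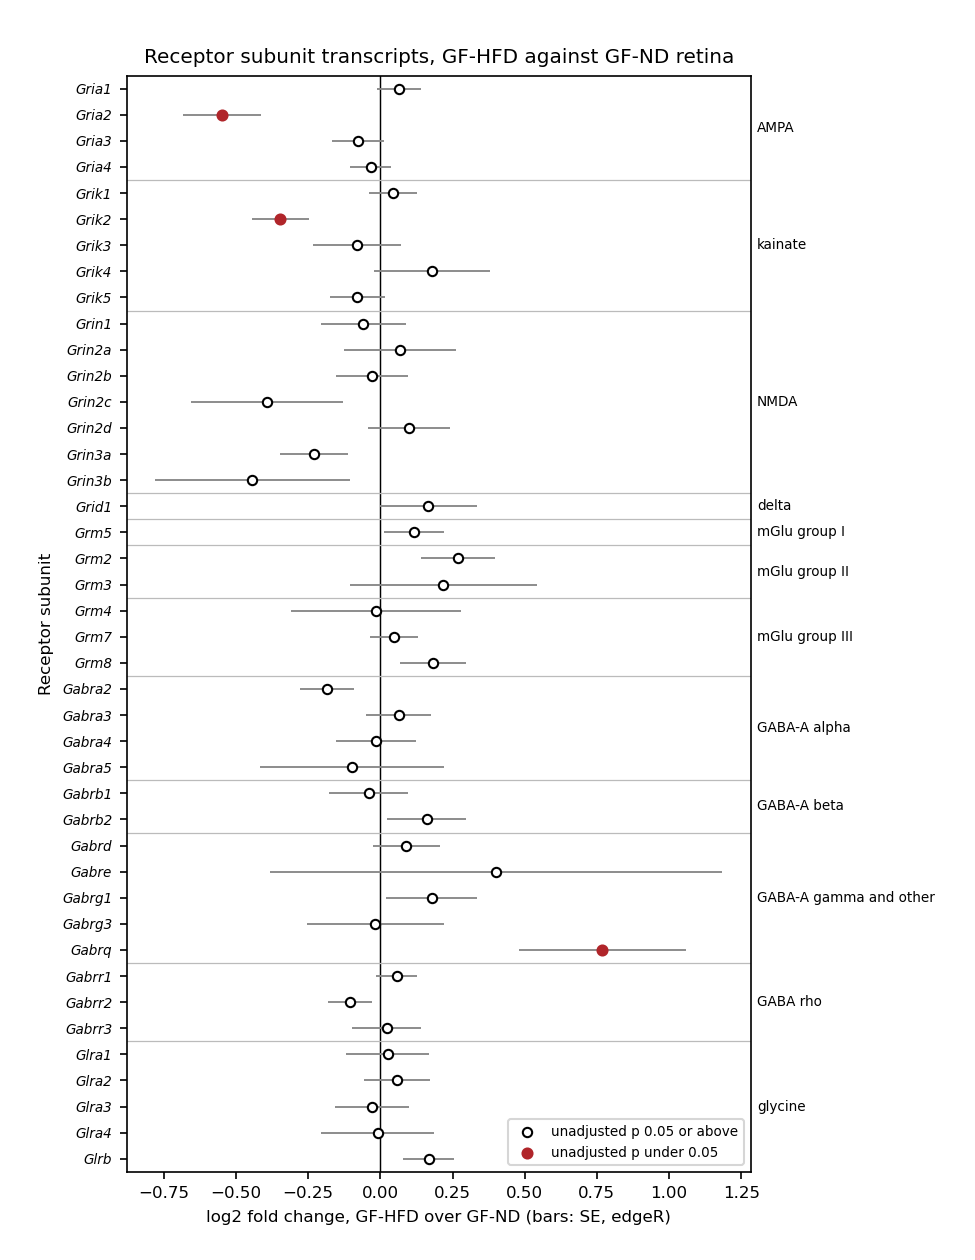
Log2 fold change of 42 receptor subunits, GF-HFD over GF-ND, with bars for the SE of the edgeR fit over 8 mice and receptor classes marked at the right. Filled points mark the 3 members with an unadjusted p under 0.05, Gria2 at -0.55, Grik2 at -0.35 and Gabrq at 0.77, of which none passed the adjusted threshold.

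Gria2 encodes the AMPA receptor subunit GluA2, whose edited form keeps calcium out of the channel. Its gene lies on the minus strand of chromosome 3 (GRCm38, 80681450 to 80802835). The promoter from RefSeq is shown because Gria2 had the smallest p of all members, with 250 bases before and 50 after the transcription start (chr3:80802786-80803085, minus strand, GRCm38.p6), and capitals mark a match to the consensus of the transcription factor NRF-1.
Gria2 promoter: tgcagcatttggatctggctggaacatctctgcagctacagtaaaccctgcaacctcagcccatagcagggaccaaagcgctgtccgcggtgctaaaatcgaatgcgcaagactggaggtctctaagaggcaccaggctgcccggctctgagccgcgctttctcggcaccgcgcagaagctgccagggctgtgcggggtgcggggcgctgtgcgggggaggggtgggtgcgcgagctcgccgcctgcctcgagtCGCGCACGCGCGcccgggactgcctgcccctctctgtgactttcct
The match spans bases 255 to 266 of the window, just after the start at base 251, and does not overlap a match to another motif searched. On either strand, this motif was found in 1.27% of 32851 promoter windows and in 2 of the 31 members with a window, Gria2 and Gabrb1. The window had 65.7% G and C, against a median of 52.7% over all windows.

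The Gria2 level was 190.0, 266, 169 and 222 CPM in GF-ND mice 9, 10, 11 and 12, and 142, 146, 159 and 131 CPM in GF-HFD mice 13, 15, 16 and 19. Every GF-HFD retina lay below every GF-ND retina, and mouse 10 was the highest and mouse 19 the lowest. The means were 212 ± 42.2 and 145 ± 11.7 CPM (SD, n = 4 each), and the log2 fold change was -0.55 (SE 0.14). The unadjusted edgeR p was 0.00233 and the adjusted p 0.649, and the exact permutation test (two-sided, on log2 CPM) gave p = 0.0286, the smallest that 4 against 4 mice allow. Over 16 planned processing settings the log2 fold change of Gria2 lay between -0.64 and -0.43, the unadjusted p was under 0.05 in 16 of them, and the adjusted p ran from 0.025 to 0.927. The adjusted p of 0.025 came from the fit without GF-ND mouse 11, the only one of these settings in which it was under 0.05.

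In the other AMPA subunits, GluA1, GluA3 and GluA4, the groups overlapped. The levels of Gria4, the most abundant AMPA subunit per kb, were 99.9, 96.5, 111 and 98.8 CPM in the GF-ND and 99.7, 102, 99.2 and 96.8 CPM in the GF-HFD mice. The GF-HFD values lay within the GF-ND range, with a log2 fold change of -0.03 (SE 0.07). Gria1 and Gria3 had log2 fold changes of 0.06 (SE 0.08) and -0.08 (SE 0.09). The median over the 4 AMPA subunits was -0.05, with 1 higher and 3 lower.

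The share of Gria2 among all AMPA subunit counts describes its balance with the other subunits within each library. It was 48.6, 56.4, 42.8 and 52.1% in GF-ND mice 9, 10, 11 and 12, and 41.5, 41.3, 42.9 and 39.1% in GF-HFD mice 13, 15, 16 and 19. The means were 49.98% ± 5.73 and 41.2% ± 1.58 (SD, n = 4 each), and here the groups overlapped, since GF-ND mouse 11 lay below GF-HFD mouse 16. The 95% Wilson interval of any of these shares reached at most 0.806 percentage points to either side, for counting error only. No test was made on the share, since it is built from the same counts as the level.

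Rod markers also moved with the diet groups and with the opposite sign to Gria2. All 5 rod markers had a higher fitted level in GF-HFD, with a median log2 fold change of 0.34. Of these, 3 did not overlap between the groups, where 2.29% of all genes lay apart in this direction. The summed level was 31100 to 52390 CPM in GF-ND and 53350 to 68960 CPM in GF-HFD retinas. For cells of the inner retina and horizontal cells the ranges overlapped. Bipolar cell markers summed to 1350 to 1444 and 1412 to 1525 CPM, horizontal cell markers to 88.6 to 120 and 100.1 to 120 CPM, and amacrine cell markers to 670.1 to 920.1 and 778 to 828 CPM in GF-ND and GF-HFD. Ganglion cell markers summed to 655.5 to 912.1 and 826 to 941.5 CPM, and 7 of 7 were higher in fitted level (median log2 fold change 0.23). Of the Müller glia markers 5 of 5 were higher (median 0.15), and of the cone markers 4 were higher and 1 lower (median 0.19). The part of the cells they mark in the levels of Gria2 and Grik2 was not tested. Counts are per gene, and of the 8 annotated transcripts of Gria2 5 retain an intron, and 32.6% of the counted exon length lies outside coding transcripts.

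Grik2 encodes GluK2, a pore-forming kainate receptor subunit. The gene lies on the minus strand of chromosome 10 (GRCm38, 49094833 to 49788766). Its RefSeq promoter window (chr10:49788705-49789004, minus strand, GRCm38.p6, 64.7% G and C) is printed beside that of Gria2 because Grik2 was the other member whose groups did not overlap, and it is in lower case throughout because it held no match to the motifs searched.
Grik2 promoter: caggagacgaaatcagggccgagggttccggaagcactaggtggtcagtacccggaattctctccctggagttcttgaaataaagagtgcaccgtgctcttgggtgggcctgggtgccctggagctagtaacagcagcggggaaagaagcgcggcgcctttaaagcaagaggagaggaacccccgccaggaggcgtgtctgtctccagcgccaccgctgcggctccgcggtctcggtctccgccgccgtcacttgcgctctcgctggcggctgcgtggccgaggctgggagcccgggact
The motifs searched on both strands were the NRF-1 consensus, GGGCGG (the GC box), CCAAT (the CCAAT box) and TATAAA (the TATA box), and no match says only that these letters are not in the window.

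The Grik2 level was 32.5, 38.3, 34.9 and 30.0 CPM in GF-ND mice 9, 10, 11 and 12, and 28.9, 27.4, 25.5 and 24.9 CPM in GF-HFD mice 13, 15, 16 and 19. Every GF-HFD retina lay below every GF-ND retina, with mice 12 and 13 closest to each other. The means were 33.9 ± 3.52 and 26.7 ± 1.86 CPM (SD, n = 4 each), so that the log2 fold change was -0.35 (SE 0.10), with an unadjusted edgeR p of 0.00586, an adjusted p of 0.649 and an exact permutation p of 0.0286. The log2 fold change of Grik2 lay between -0.41 and -0.29 over the 16 planned settings, each with an unadjusted p under 0.05. Without mice 11, 16 and 19 together, the 3 libraries with most fibroblast and pigment epithelium transcripts (an alternative chosen after the data were seen), Grik2 had a log2 fold change of -0.24 with an unadjusted edgeR p of 0.0783, and Gria2 one of -0.63 with 0.000445.

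Grik2 made up 14.6, 14.5, 13.1 and 13.2% of all kainate subunit counts in the GF-ND mice and 12.0, 11.6, 10.7 and 10.8% in the GF-HFD mice. These shares did not overlap (means 13.9% ± 0.80 against 11.3% ± 0.65, SD over 4 mice), and their Wilson intervals reached at most 0.72 percentage points to either side. Grik1, the kainate subunit of highest level per kb, encodes GluK1, known from the OFF bipolar cells of the cone pathway. It stood at 110.4, 124, 136 and 114 CPM in the GF-ND and 123, 129, 123 and 126 CPM in the GF-HFD mice, which overlapped. The remaining kainate subunits had log2 fold changes of -0.08 (Grik3), 0.18 (Grik4) and -0.08 (Grik5), and the class median was -0.08.

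**Figure D3:**
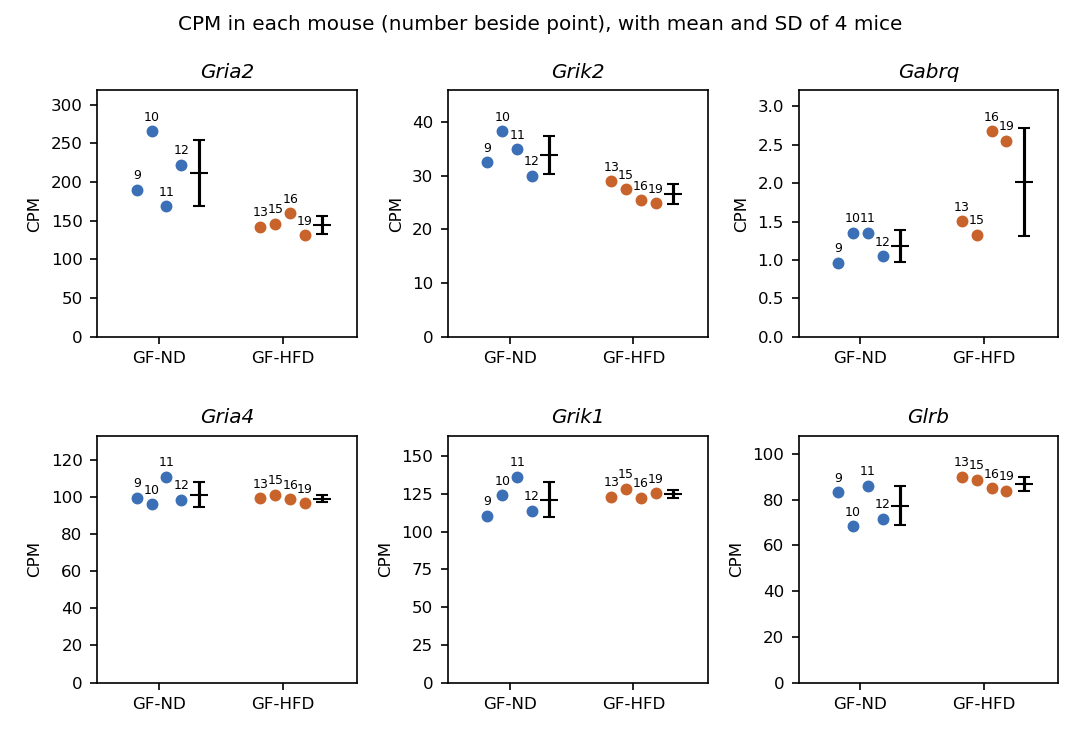
CPM in each mouse (points with mouse numbers; each vertical axis starts at 0) with the mean and SD of 4 mice for the 3 members with an unadjusted p under 0.05 (top) and for Gria4, Grik1 and Glrb (bottom). The GF-HFD points of Gria2 (131 to 159 CPM) and Grik2 (24.9 to 28.9 CPM) all lie below the GF-ND points, those of Gabrq are high in mice 16 and 19, and the groups overlap in the bottom row.

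NMDA receptors need the subunit GluN1, encoded by Grin1, beside GluN2 subunits that set their kinetics. Grin1 stood at 36.1, 48.5, 49.7 and 34.1 CPM in the GF-ND and 45.3, 37.6, 44.4 and 34.4 CPM in the GF-HFD mice. The groups overlapped over most of their range, with a log2 fold change of -0.06 (SE 0.15). Of the 7 NMDA subunits 2 were higher and 5 lower, with a median of -0.06 and a range from -0.44 (Grin3b, SE 0.34) to 0.10 (Grin2d, SE 0.14). Grin2a, Grin2b, Grin2c and Grin3a lay at 0.07, -0.03, -0.39 and -0.23 on the same scale. As a share of the summed Grin2a and Grin2b counts, Grin2a was at 26.2% ± 3.51 in GF-ND mice against 27.8% ± 1.35 (SD, n = 4 each), and the ranges overlapped. Counts of Grin1 and Grin3b are uncertain, since exons of Grin1os and Tmem259 on the opposite strand cover 13.5% and 32.1% of their exon length and the strand setting of the counting was not given.

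Grid1 encodes a delta subunit, of a class that belongs to the glutamate receptor family by sequence and organises synapses. It stood at 19.4, 21.2, 32.4 and 18.4 CPM in the GF-ND and 24.8, 26.0, 25.5 and 26.4 CPM in the GF-HFD mice. Mouse 11 had the highest value of all 8, while the other 3 GF-ND retinas lay below every GF-HFD retina. The log2 fold change was 0.17 (SE 0.17).

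Among the metabotropic receptors, without Grm6, 5 of 7 were higher and 2 lower in fitted level (4 and 3 with library totals), with a median log2 fold change of 0.12. Group I receptors signal through phospholipase C, and Grm5, a receptor of this group, stood at 34.3, 33.8, 44.9 and 34.1 CPM in the GF-ND and 39.6, 40.3, 41.0 and 38.5 CPM in the GF-HFD mice. Mouse 11 was again the highest, and the other 3 GF-ND values lay below all GF-HFD values. The log2 fold change of Grm5 was 0.12 (SE 0.10).

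Groups II and III lower cyclic AMP through inhibitory G proteins and often sit on presynaptic terminals. Grm2, of group II, stood at 9.81, 10.9, 12.5 and 9.07 CPM in the GF-ND and 13.6, 12.8, 12.0 and 12.4 CPM in the GF-HFD mice. Only the value of mouse 11 lay within the GF-HFD range. The log2 fold change of Grm2 was 0.27 (SE 0.13, exact permutation p = 0.0857) and that of Grm3 0.22 (SE 0.32). In group III, Grm7 stood at 21.0, 21.8, 20.5 and 21.5 CPM in the GF-ND and 22.1, 23.2, 21.4 and 20.9 CPM in the GF-HFD mice, a narrow range with a log2 fold change of 0.05 (SE 0.08). Grm8 was at 0.18 (SE 0.11) on this scale and Grm4 at -0.02 (SE 0.30).

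GABA receptor subunits were higher in fitted level in 11 of 17 cases and lower in 6 (9 and 8 with library totals), with a median log2 fold change of 0.06. Of the alpha subunits, which help to form the site where GABA binds, the log2 fold changes given here lay between -0.19 (Gabra2, SE 0.09, exact permutation p = 0.0571) and 0.06 (Gabra3), with Gabra4 at -0.02, Gabra5 at -0.10 and a class median of -0.02.

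Beta subunits complete the GABA site and the pore. Gabrb1 and Gabrb2 had log2 fold changes of -0.04 (SE 0.14) and 0.16 (SE 0.14).

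The gamma subunits anchor GABA-A receptors at synapses. In the class of the gamma and other subunits, Gabrd, the subunit of extrasynaptic receptors, was at a log2 fold change of 0.09 (SE 0.12), Gabrg1 at 0.18 (SE 0.16), Gabrg3 at -0.02 (SE 0.24) and Gabre at 0.40 (SE 0.78), and the class median was 0.13.

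Gabrq encodes the theta subunit, on the plus strand of chromosome X (GRCm38, 72825178 to 72842602). Its RefSeq promoter window (chrX:72824928-72825227, plus strand, GRCm38.p6, 67.0% G and C) is shown because Gabrq was the one member higher at an unadjusted p under 0.05, and capitals mark matches to the GC box GGGCGG and to CCAAT, including their reverse complements CCGCCC and ATTGG.
Gabrq promoter: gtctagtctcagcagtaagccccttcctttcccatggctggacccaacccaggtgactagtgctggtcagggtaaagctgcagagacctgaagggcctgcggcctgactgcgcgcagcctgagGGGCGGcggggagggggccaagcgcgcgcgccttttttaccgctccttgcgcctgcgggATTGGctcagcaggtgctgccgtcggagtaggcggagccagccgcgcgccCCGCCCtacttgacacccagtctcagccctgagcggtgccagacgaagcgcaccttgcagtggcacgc
The GC box matches start 127 and 18 bases before the transcription start and the CCAAT match 68 bases before it, without overlap. Such short motifs are common: GGGCGG was found in 35.7%, CCAAT in 37.4% and TATAAA in 13.6% of all windows, and in 19, 14 and 4 of the 31 members with a window.

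Gabrq was a low transcript, with 540 counts over the 8 libraries. It stood at 0.964, 1.35, 1.36 and 1.05 CPM in the GF-ND and 1.5, 1.33, 2.68 and 2.55 CPM in the GF-HFD mice. Mice 16 and 19 were high, mouse 13 lay just above the GF-ND mice and mouse 15 lay among them. The means were 1.18 ± 0.20 and 2.02 ± 0.70 CPM (SD, n = 4 each), with a log2 fold change of 0.77 (SE 0.29), an unadjusted edgeR p of 0.0239, an adjusted p of 0.649 and an exact permutation p of 0.0857. The 2 high retinas were those with the most fibroblast transcripts, and also had 325 to 385 CPM of pigment epithelium markers. GF-ND mouse 11, with 779 CPM of pigment epithelium and 152 CPM of fibroblast markers, had a Gabrq level of 1.36 CPM. Its fibroblast sum was mostly Ogn, at 108.5 CPM, and the other fibroblast markers were each lower than in mice 16 and 19. Dcn, for instance, stood at 4.38 CPM in mouse 11 and at 32.6 and 32.3 CPM in mice 16 and 19. The part of these tissues in Gabrq was not tested. The unadjusted p of Gabrq stayed under 0.05 in 11 of 15 planned settings and was 0.0631, 0.056, 0.0794 and 0.0734 without mouse 9, 12, 16 or 19, with log2 fold changes of 0.68, 0.72, 0.60 and 0.64. Without mice 11, 16 and 19 together the log2 fold change was 0.35 with an unadjusted edgeR p of 0.296.

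The rho subunits form the receptor of bipolar cell terminals named above. Gabrr1 stood at 97.9, 84.3, 90.9 and 90.3 CPM in the GF-ND and 95, 97.2, 94.8 and 91.0 CPM in the GF-HFD mice. The groups overlapped, with a log2 fold change of 0.06 (SE 0.07), and Gabrr2 and Gabrr3 had log2 fold changes of -0.11 (SE 0.08) and 0.02 (SE 0.12).

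Glycine receptors are anchored by the beta subunit, Glrb, which binds the scaffold protein gephyrin. Glrb stood at 83.3, 68.5, 86.0 and 71.6 CPM in the GF-ND and 89.9, 88.7, 84.8 and 83.9 CPM in the GF-HFD mice. Mice 10 and 12 lay below all GF-HFD mice, while mouse 11 lay within their range and mouse 9 just under it. The log2 fold change of Glrb was 0.17 (SE 0.09, exact permutation p = 0.114), and those of the 4 alpha subunits were 0.03 (Glra1), 0.06 (Glra2), -0.03 (Glra3) and -0.01 (Glra4).

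Several receptor genes lie beside each other in the genome, and their values are given side by side. Gria2 and Glrb are 40.8 kb apart on chromosome 3, with log2 fold changes of -0.55 and 0.17. Gabre, Gabra3 and Gabrq lie on chromosome X with 0.40, 0.06 and 0.77, and Gabrr2 and Gabrr1, 36.7 kb apart on chromosome 4, with -0.11 and 0.06.

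GF-ND mouse 11 stood apart from the other 7 retinas in these genes and in some of the lists described with them. It had the highest level of all 8 libraries for 24 of the 47 members (51.1%), where it was the highest for 21.0% of all genes. Examples were Grm4, with 21.7 CPM in mouse 11 against 9.18, 10.4 and 7.30 CPM in mice 9, 10 and 12, and Gabrg3, with 41.9 CPM against 21.8, 21.2 and 17.8 CPM. The GF-HFD mice lay at 11 to 13.5 CPM for Grm4 and 22.2 to 27.7 CPM for Gabrg3. The SD of the log2 CPM had a median over members of 0.21 in GF-ND and 0.09 in GF-HFD, was larger in GF-ND for 36 of 47 members, and had a median of 0.15 in GF-ND without mouse 11. By mean log2 CPM of a list, mouse 11 was also the highest of the 8 for amacrine cell markers (6.449, against at most 6.255). The same held for the GABA-B genes (5.147, at most 4.856) and the AMPA and kainate receptor partners (5.036, at most 4.989) described below. It was not the highest for excitatory scaffold genes or for bipolar and ganglion cell markers, and it was the lowest for cone markers. Mouse 11 also had the lowest summed rod markers, 31100 CPM, and the most lens transcripts.

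**Figure D4:**
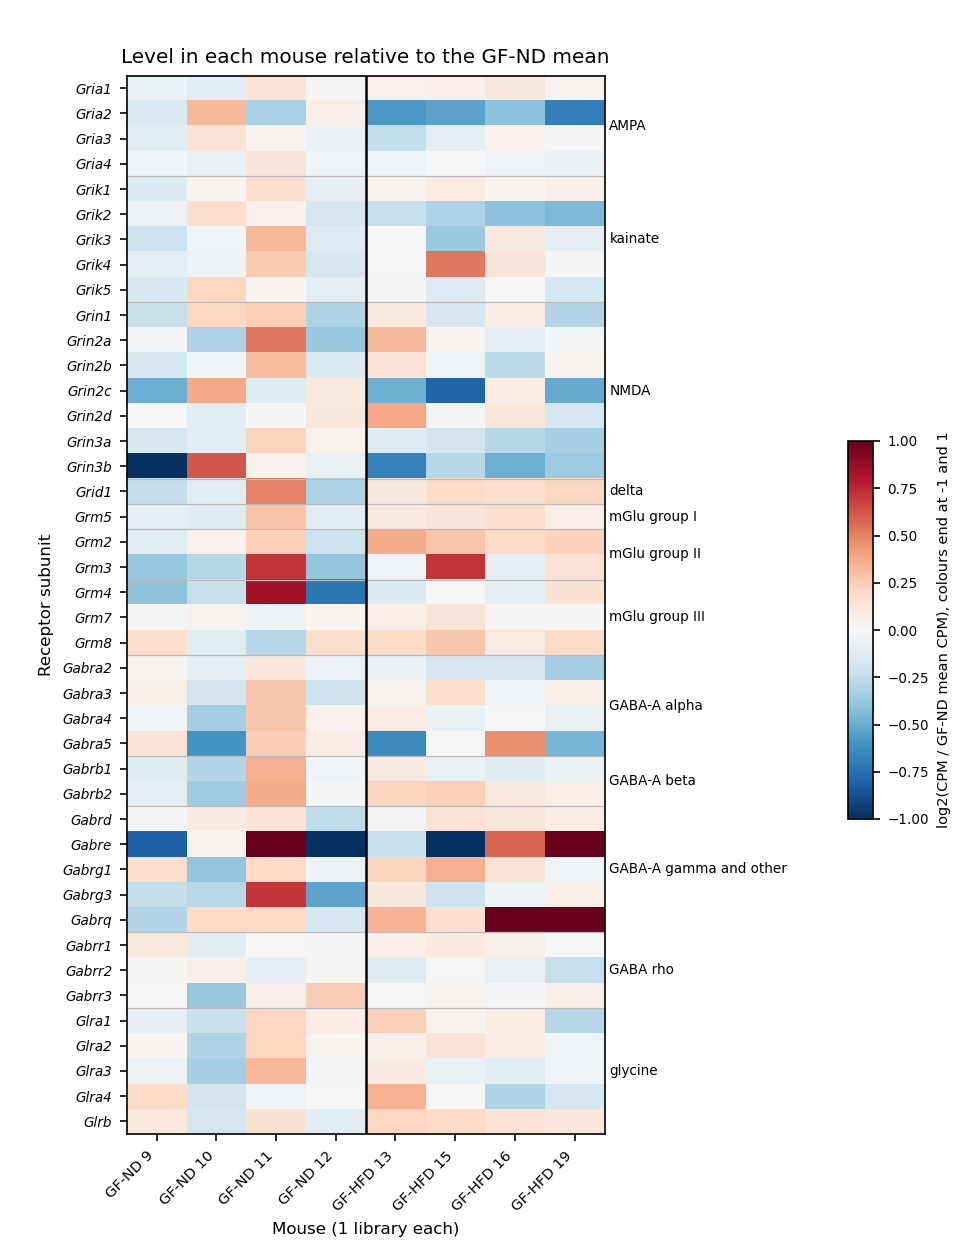
Level of 42 receptor subunits (rows, by class) in each mouse (columns) as log2 of the CPM over the GF-ND mean CPM, with colours ending at -1 and 1 and a line between the diets. GF-ND mouse 11 is red for most GABA receptor rows and is the highest of the 8 for 24 of 47 members, and Gria2 and Grik2 are blue in all 4 GF-HFD mice.

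Without mouse 11, more subunits were higher in GF-HFD. Because mouse 11 was the highest of the 8 for 24 of the 47 members, leaving it out lowers their GF-ND level by construction. For Gria2 it was the lowest GF-ND retina (169 CPM), so that difference grows in the same way. The counts of this fit are therefore a description and no separate support for a diet difference. In this fit 35 of 47 members had a higher fitted level, with a median log2 fold change of 0.10 against 0.01 over all genes. With 3 GF-ND mice, 11 members were higher at an unadjusted edgeR p under 0.05 (23.4%, against 12.1% of all genes) and 2 were lower (4.26%, against 11% of all genes). The 11 included Glrb, Gabrg3, Grm5, Grm2, Gabrb2, Grid1, Grin2a, Grm4 and Gabrq, which had the largest log2 fold change among them at 0.85, and the 2 were Gria2 (-0.64) and Grik2 (-0.33). At an adjusted p under 0.05, Grid1 was higher (log2 fold change 0.39, SE 0.08, adjusted p = 0.0459 in edgeR, where 0.232% of all genes were called higher) and Gria2 lower (adjusted p = 0.025 in edgeR, where 1.37% were called lower). The adjusted p of Grid1 ran from 0.0459 to 0.951 over the planned settings.

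By class, the fit without mouse 11 gave higher levels for 6 of 6 gamma and other GABA-A subunits, 3 of 3 beta subunits and 4 of 5 glycine receptor subunits, with median log2 fold changes of 0.29, 0.20 and 0.11. The AMPA class held 2 higher and 2 lower members. Grm4 and Gabrg3, at -0.02 each with all mice, had log2 fold changes of 0.43 (SE 0.14) and 0.33 (SE 0.11). Markers of the retinal neurons differed between lists in the same fit. At an unadjusted edgeR p under 0.05, 7 of 7 ganglion cell, 3 of 7 amacrine cell, 3 of 7 bipolar cell, 1 of 4 horizontal cell, 1 of 5 cone and 0 of 5 rod markers were higher, and 1 cone marker was lower. Their median log2 fold changes were 0.30, 0.19, 0.05, 0.14, 0.04 and 0.21 in that order. With all mice, 1, 0, 1, 0, 1 and 1 were higher at this threshold, in the same order. Without mouse 11, 12.1% of all genes were called higher. All 5 pigment epithelium markers were then higher at this threshold, with a median log2 fold change of 4.37, against 0 with all mice. Mouse 11 had the highest summed pigment epithelium (779 CPM), ganglion (912.1) and amacrine cell markers (920.1) of the GF-ND mice. Leaving it out therefore lowers the GF-ND level of these lists by construction. The part of the marked cells in the receptor values was not tested.

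**Figure D5:**
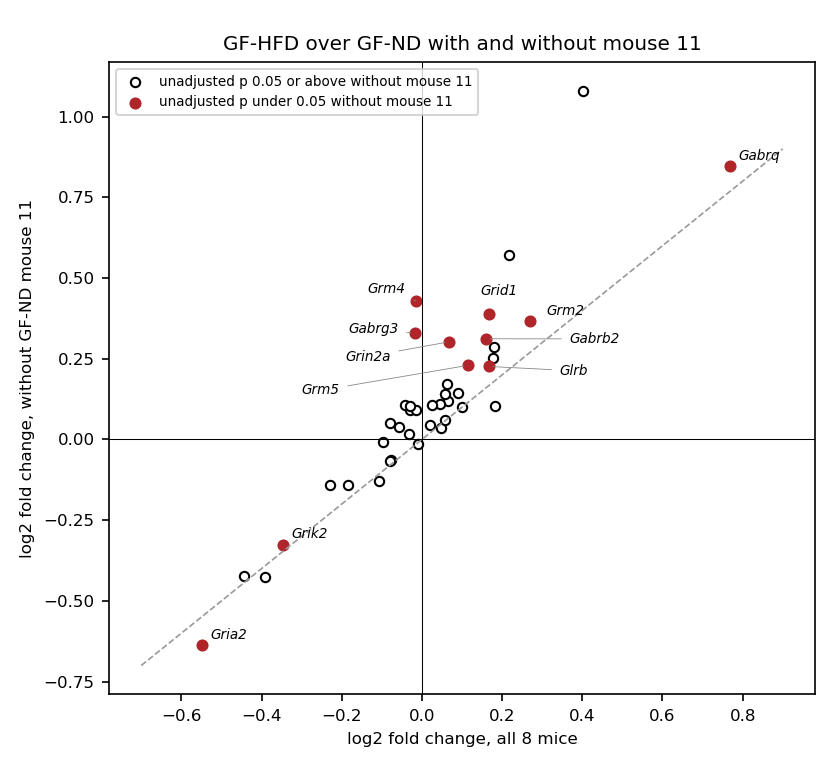
Log2 fold change of 42 receptor subunits, GF-HFD over GF-ND, with all 8 mice (horizontal) and without GF-ND mouse 11 (vertical), with a dashed line where both are equal. Filled and named points had an unadjusted p under 0.05 without mouse 11, 9 of those drawn higher and 2 lower, and most points lie above the line.

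Genes that work with these receptors were described from lists. Of 18 AMPA and kainate receptor partners, 15 were higher and 3 lower in fitted level, with a median log2 fold change of 0.09, and 0 passed an adjusted p of 0.05. At an unadjusted edgeR p under 0.05, Cnih3, a cornichon that binds AMPA receptors, was higher (0.42, SE 0.17), Grip2, a scaffold that binds the end of GluA2, was lower (-0.27, SE 0.11), and Nsf was higher (0.20, SE 0.08). Nsf, the ATPase of membrane fusion that also binds GluA2, had the highest level per kb of the list (71.4 CPM per kb) and groups that did not overlap, at 541 to 573 CPM in GF-ND and 602 to 675 CPM in GF-HFD. Grip2 stood at 22.7, 26.6, 21.2 and 25.8 CPM in the GF-ND and 18.9, 20.6, 21.7 and 18.8 CPM in the GF-HFD mice, so that mice 11 and 16 overlapped. Over all genes, 2.85% were called higher and 4.53% lower at an unadjusted edgeR p under 0.05, and 2.29% lay apart with GF-HFD higher. These shares also apply to the lists that follow, with all mice.

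Of 19 proteins of the excitatory scaffold, 13 were higher and 6 lower, with a median of 0.03, and 1 was lower at an unadjusted edgeR p under 0.05. Dlg4, which encodes PSD-95 and led the list per kb at 62.9 CPM per kb, had a log2 fold change of -0.07 (SE 0.16). Of 11 inhibitory scaffold and GABA-A partner genes, 8 were higher and 3 lower, with a median of 0.05. Lhfpl4, which links GABA-A receptors to neuroligin, stood at 121 to 128 CPM in GF-ND and 133 to 145 CPM in GF-HFD (0.17, SE 0.07), and Clptm1, which holds GABA-A receptors in the endoplasmic reticulum, at 125 to 153 and 165 to 194 CPM (0.27, SE 0.09). Both had groups that did not overlap (2.29% of all genes in this direction) and an unadjusted edgeR p under 0.05 (2.85% of all genes in this direction). Gabarapl1, the most abundant of this list at 113 CPM per kb, had a log2 fold change of 0.17 (SE 0.10).

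The GABA-B receptors and their partners had 4 of 6 genes higher and 0 at an unadjusted edgeR p under 0.05, with Gabbr1, the most abundant at 25.9 CPM per kb, at 0.09 (SE 0.08). Of 21 genes that make, load or clear the transmitters, 17 were higher and 4 lower, with a median log2 fold change of 0.09. Slc17a7, the vesicular glutamate transporter of photoreceptors and bipolar cells, was higher at an unadjusted edgeR p under 0.05 (0.37, SE 0.14), at 1068 to 1609 CPM in GF-ND and 1602 to 2045 CPM in GF-HFD, with mouse 11 the lowest. Glul, the glutamine synthetase of Müller glia and the most abundant of the list at 779 CPM per kb, had a log2 fold change of 0.15 (SE 0.11). With all mice, in none of these 5 lists did a gene pass an adjusted p of 0.05 in edgeR. Leaving out mouse 11 changed these counts too. At an unadjusted edgeR p under 0.05, 9 AMPA and kainate receptor partners were then higher in place of 2, 3 excitatory scaffold genes in place of 0, 4 inhibitory scaffold and GABA-A partner genes in place of 2, 3 GABA-B genes in place of 0 and 8 transmitter genes in place of 1, where 12.1% of all genes were called higher. At that p, 2 AMPA and kainate receptor partners were lower in place of 1, and 1 transmitter gene in place of 0. Of the excitatory scaffold, 1 gene was lower in both fits, and of the inhibitory and GABA-B lists 0. Without mouse 11, 11% of all genes were called lower. The number of GABA-B genes with a higher fitted level went from 4 to 6 of 6, and their median log2 fold change from 0.14 to 0.34.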

How the data were processed

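RNA of 8 retinas, 1 per mouse, was measured, so that replicates are separate mice. The authors used STAR 2.4.2 for alignment to GRCm38 (mm10) and featureCounts (Subread 1.4.6-p1) for counting by gene, per the labels, and deposited 1 table of raw counts per library, without scaling or filter. The strand setting of the counting was not given in the sources used here, so genes that share exons with another gene are uncertain (20 of 47 members share some, 2 over more than 10% of their exon length).

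Genes with a total of 10 or more counts were tested with edgeR 4.0.16 in R 4.3.3 (TMM factors, glmQLFit and glmQLFTest, Benjamini-Hochberg adjustment over all genes tested). This is a quasi-likelihood fit over all genes, and single genes also had an exact permutation test, two-sided, of log2 CPM (prior count 2) over 70 arrangements, where no p can be under 0.0286. A script was tested on simulated data before use. Alternatives were RLE factors, library totals, no filter, filterByExpr, 10 CPM in at least 4 libraries, limma-voom (limma 3.58.1), DESeq2 1.42.0, each mouse left out in turn, and mice 11 and 19 left out together. An alternative without mice 11, 16 and 19 was added after the data were seen. The paper's thresholds, a p of 0.01 and a log2 fold change of 1, were applied to the unadjusted p.

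The members, classes and lists of partner genes and cell type markers were chosen with earlier results of these data known. Values of each mouse are given for members with an unadjusted p under 0.05, members whose groups do not overlap and the member of highest level per kb in each class. Of the other lists, genes with an unadjusted p under 0.05 and the one of highest level per kb are named. Some genes that these rules would name are not reported here, and figures leave them out, while counts and medians include them. The values of Grm4 and Gabrg3 in single mice were singled out after they were seen. Exon lengths and positions are from GENCODE vM21, whereas the paper counted on vM23. Promoter windows are from RefSeq (GRCm38.p6), and 31 of the 47 members had one. Motifs were chosen after the sequences were read. Enrichment analysis was not run.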

Additional observations from a re-analysis of the deposited data

Results flagged for a closer look

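In 2 of the 94 groups of 4 mice looked at (47 members in 2 diets), 1 mouse lay far from the other 3, and chance alone gives such a gap in about 1 in 20 groups. Both concern GF-ND mouse 11. Grm5, the group I metabotropic glutamate receptor, stood at 44.9 CPM in mouse 11 and at 33.8 to 34.3 CPM in the other GF-ND mice. Grm3, of group II, stood at 2.22 CPM in mouse 11 and at 1.03 to 1.11 CPM in the others, with 490 counts over all libraries. GF-HFD mouse 15 had a Grm3 level of 2.21 CPM, close to that of mouse 11.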

How the results depend on the processing

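Against 3 members at an unadjusted p under 0.05 and 2 whose groups did not overlap, library totals gave 5 and 5. A filter of 10 CPM in 4 libraries also gave 5 and 5, with 39 members tested and without Gabrq. The members at that p were 1 higher and 4 lower with library totals, and 0 higher and 5 lower with the filter. Over all genes, 416 higher and 1481 lower of 26900 had such a p with library totals, and 215 and 680 of 10291 with that filter. RLE factors, no filter, filterByExpr, limma-voom and DESeq2 gave 3 members at an unadjusted p under 0.05. With each mouse left out in turn, these counts ran from 2 to 13 and from 2 to 15, and members at an adjusted p under 0.05 from 0 to 2. The high values came without mouse 11, while mice 9 and 13 left 5 and 4 members without overlap. The rho class median ran from -0.091 (without mouse 10) to 0.054, the kainate median from -0.13 to 0.051 (without mouse 11), and the log2 fold changes of Gabrg3 and Grm4 from -0.16 to 0.33 and from -0.20 to 0.43, both highest without mouse 11. Without mice 11 and 19 together, 12 members had an unadjusted p under 0.05, 16 did not overlap, the kainate median was 0.053, and Gabrg3 and Grm4 were at 0.30 and 0.37. Of 25720 genes in that fit, 2445 were higher and 2508 lower at an unadjusted p under 0.05. Without mice 11, 16 and 19, chosen after the data were seen, these counts were 12 and 23, the median of group II metabotropic receptors was 0.59 and that of glycine receptors 0.19, and Gabrg3 and Grm4 were at 0.32 and 0.39. There, 1828 of 25102 genes were higher and 2080 lower at that p. Groups of fewer mice lie apart more easily, and the share of all genes without overlap was taken for the main fit only. The counts without overlap in the other settings are therefore not comparable with the 2 of the main fit. The cause of these shifts was not tested, beyond the fewer mice and genes of these fits. Medians near 0 changed sign with library totals in group I (-0.017) and group III metabotropic receptors, rho (-0.023) and glycine receptors (-0.014). With the filter of 10 CPM they changed sign in these classes too. The median of the gamma and other class went from 0.13 to -0.001 with that filter, which left out Gabrq and Gabre. No paired analysis was possible because the groups share no replicate numbers. The members with fewest counts, Gabre, Gabra5, Grin3b, Grm3 and Gabrq, had SEs of 0.29 to 0.78, so that small differences in them were not detectable at this depth.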
